A study of Homo sapiens with 9 samples.

Results

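The genes described here are 49 genes of DNA replication and of entry into S phase, the part of the cell cycle in which DNA is copied. They were taken by name from a fixed list of symbols, and all 49 are rows of a deposited table of 29972 genes. All 49 also passed the filter on low values used for the tests, a mean of at least 0.5 scaled TPM over 9 libraries. TPM (transcripts per 1000000) is a level corrected for transcript length. Scaled TPM is that value divided by a size factor per library, and every level given without another unit is on that scale. Numbers written after "log2" are differences of log2(scaled TPM + 0.5) between group means, with the SE from limma after ±.

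H2030, the cell line used throughout, is an established line of human non-small cell lung cancer, grown in RPMI medium with serum. All cells were transfected with siRNA at 20 nmol/L with a lipid reagent, so the control cells also carried siRNA. The control group received a non-targeting pool (ON-TARGETplus), the siMENA11a group a mix of siRNAs within exon 11a of ENAH, and the siMENA group a commercial pool (siGENOME SMARTpool) against ENAH as a whole. ENAH encodes hMENA, a regulator of actin filaments, and hMENA11a is the isoform that contains exon 11a. Each group had 3 libraries, numbered 1 to 3. Whether these were separate cultures is not said in the labels. The p-values therefore measure the spread between libraries only, and that spread may be technical. The non-targeting pool and the pool against ENAH belong to different reagent lines, and the time between transfection and harvest is not given in the sources used here.

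The level of ENAH was 43.4, 43.0 and 44.5 TPM in control, 46.4, 47.2 and 48.4 in siMENA11a and 6.85, 7.26 and 7.45 in siMENA. It fell by 2.52 on the log2 scale in siMENA (SE 0.038, limma adjusted p = 4.99e-10). In siMENA11a it was called slightly higher than in control (log2 0.12, SE 0.038, limma adjusted p = 0.0247). That call ended without any 1 of control 1, control 2, siMENA11a 2 or siMENA11a 3 (adjusted p 0.0594 to 0.0823). In TPM as deposited the difference was log2 -0.014 (adjusted p = 0.863). Gene-level TPM sums all isoforms, so the siMENA label can be checked this way but the siMENA11a label cannot. Size factors were lowest in siMENA11a (0.891 to 0.978), with 0.9998 to 1.046 for the control libraries and 1.06 to 1.09 for siMENA. RN7SL transcripts, the RNA of the signal recognition particle, took 44.3% to 45.2% of the TPM in siMENA11a and 39.6% to 41.1% in the other libraries. Among 6 epithelial markers, KRT18 (250.9 ± 6.40 TPM in control, SD, n = 3) and KRT8 (96.9 ± 3.27) were abundant, whereas the means of KRT19 and CDH1 over the 9 libraries were under 0.5 TPM. Summed, the 6 came to 354.1 to 366.2 TPM for control libraries, 313.7 to 327.5 for siMENA11a and 310.3 to 329.6 for siMENA. In control most of that sum was KRT18 and KRT8. The 4 epithelial markers that were tested went different ways against control. They ran from log2 -0.25 to 0.80 in siMENA11a and from -1.10 to 0.88 in siMENA. Of 8 leukocyte markers, 6 were under 0.5 TPM, with CD3E and NKG7 at 0 in every library, and nearly all of the summed level was CD68. That sum was 96.9 to 104.5 TPM for control libraries, 124.7 to 130.6 for siMENA11a and 40.9 to 49.2 for siMENA. Of 6 fibroblast and 6 endothelial markers, 4 and 5 were under 0.5 TPM. The fibroblast sum was 8.78 to 9.36 TPM for control libraries, 7.76 to 8.19 for siMENA11a and 15.3 to 17.1 for siMENA, and the endothelial sum did not exceed 1.22 TPM.

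DNA replication begins in G1 phase, when the origin recognition complex, CDC6 and CDT1 load the ring of MCM proteins onto DNA. At the start of S phase, CDC45 and the GINS complex join the ring to form the active helicase, primase and polymerases copy the strands behind it, and PCNA, loaded by the RFC complex, clamps the polymerases to the template. Transcription of most of these genes is known to be driven by E2F factors once cyclin-dependent kinases, cyclin E with CDK2 among them, inactivate the retinoblastoma protein. Their RNA levels are therefore widely read as a sign of how actively a cell population is cycling.

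After siRNA against exon 11a, nearly the whole replication gene set was lower than in control. Of the 49 genes, 45 fell, RPA2 rose, and ORC6, RPA3 and CCNE1 were not called (limma, adjusted p under 0.05 over all 13494 genes tested). Over all tested genes 55.6% were called in the same comparison, 27.7% lower and 27.9% higher. The median log2 fold change was -0.47 over the 49 genes and 0.01 over all tested genes. The 3 siMENA11a libraries lay below all 3 control libraries for 46 of the 49 genes and above them for 1, against 30.8% and 32.1% of all tested genes. Falls of at least 1.5-fold were called for 14 of the 49 and for 6.03% of all tested genes, so most members moved by less. The summed level of the 49 genes was 1633, 1634 and 1618 TPM in control, 1188, 1145.8 and 1118 in siMENA11a and 1252, 1285 and 1279.96 in siMENA. The groups did not overlap in this sum, and control was highest. In bulk RNA, fewer cells in S phase and less RNA per cell cannot be told apart.

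**Figure D1:**
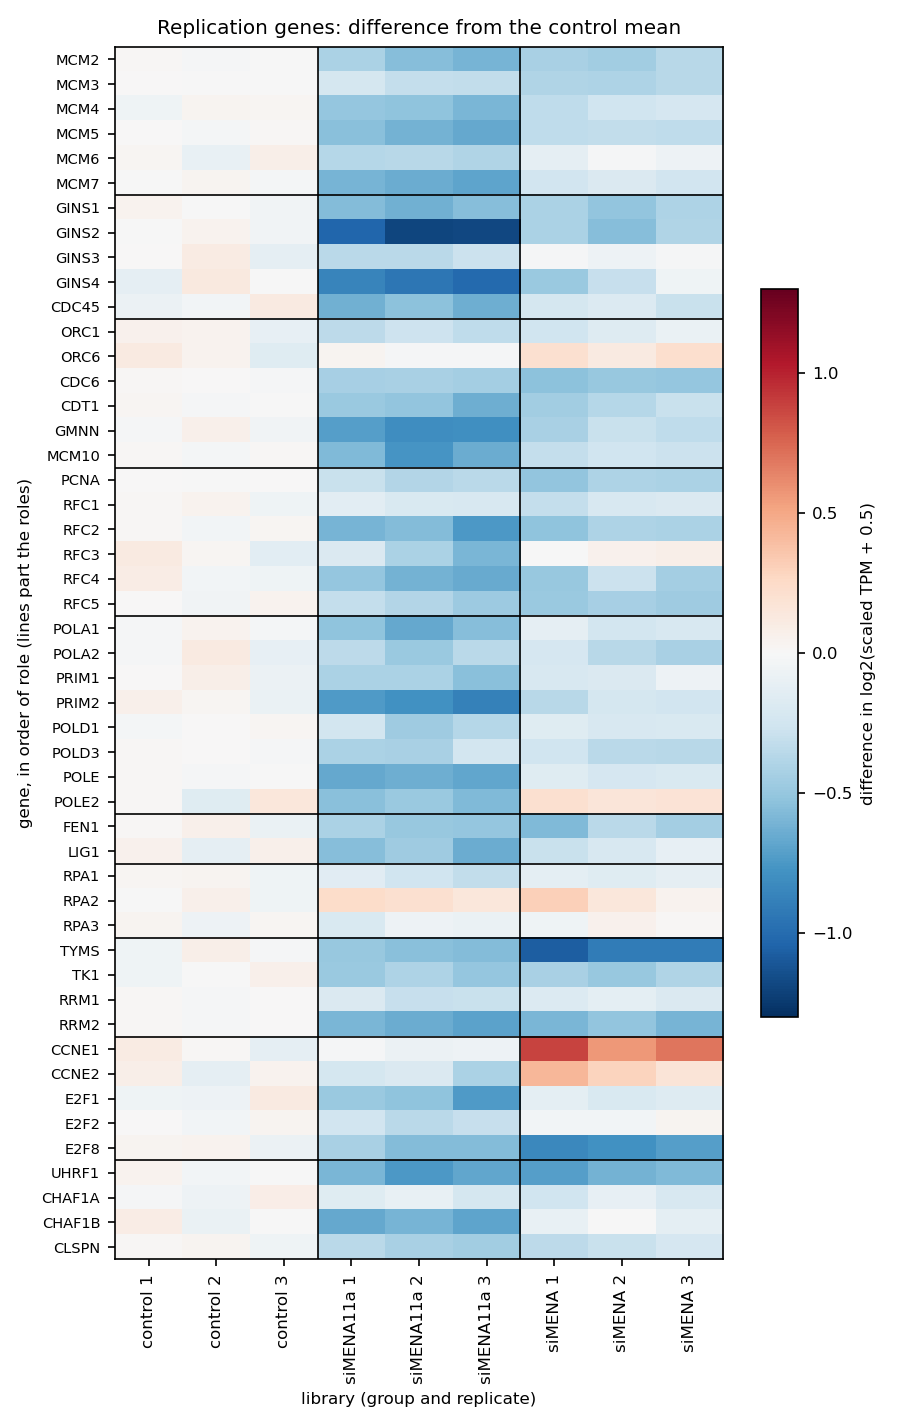
Colour shows, for each of the 49 genes (rows, in order of role) and each of the 9 libraries (columns), the difference in log2(scaled TPM + 0.5) from the mean of the 3 control libraries. Blue fills nearly every row in the 3 siMENA11a libraries, is paler in many rows of siMENA, and gives way to red for CCNE1 and CCNE2 in siMENA and for RPA2 in both.

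After siRNA against all ENAH isoforms the same set was lower too, with smaller differences and more exceptions. Against control 35 of the 49 fell, 4 rose (CCNE1, CCNE2, ORC6 and RPA2) and 10 were not called. The count of 4 was 1 without a filter on low values and 1 to 3 when any 1 library was left out. In the same comparison 25.8% of all tested genes were called lower and 23.7% higher (49.5% in all). The libraries of both groups parted downward for 34 members and upward for 4, against 29.1% and 28.5% of all tested genes. Falls of at least 1.5-fold were called for 3 members and for 5.72% of all tested genes. The median log2 fold change was -0.27 over the members and 0.01 over all tested genes. Both knockdowns were set against the same 3 control libraries, so these counts are not independent of each other. With TPM as deposited, without size factors, 25 fell and 5 rose, and the median was -0.19 with all tested genes at 0.09. Over all genes tested, 2300 were called lower and 3979 higher there, against 3478 and 3196 in scaled TPM. The falls no longer called on that scale were those of CDC45, ORC1, RFC1, POLA1, POLD1, POLE, LIG1, RPA1, RRM1 and CHAF1A.

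The knockdowns were also compared directly. In siMENA11a 29 of the 49 genes were lower than in siMENA, 5 were higher (MCM3, CDC6, PCNA, TYMS and E2F8) and 15 were not called, where 58.7% of all tested genes were called, 29.2% lower and 29.5% higher. The libraries parted downward for 31 members and upward for 5, against 32.5% and 32.6% of all tested genes. A fall of at least 1.5-fold was called for 4 members and for 6.81% of all tested genes. The median log2 difference was -0.18 over the members and 0.00 over all tested genes. In this comparison the split depends on the scaling. It was 45 lower and 1 higher in TPM as deposited, where the median of all tested genes itself moved to -0.20 and that of the members to -0.39. Over all genes tested, 6321 were called lower and 2030 higher there, against 3937 and 3983 in scaled TPM. The members' split was 31 and 2 under quantile normalisation, and 35 and 2 once small and structured RNAs were taken out and TPM rescaled. All genes tested split into 4231 and 3767 under the former and 4248 and 3877 under the latter. Measured from the median of all tested genes, the members' median lay between -0.20 and -0.16 under these 4 scalings. That distance lay between -0.49 and -0.44 for siMENA11a against control and between -0.28 and -0.25 for siMENA against control.

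**Figure D2:**
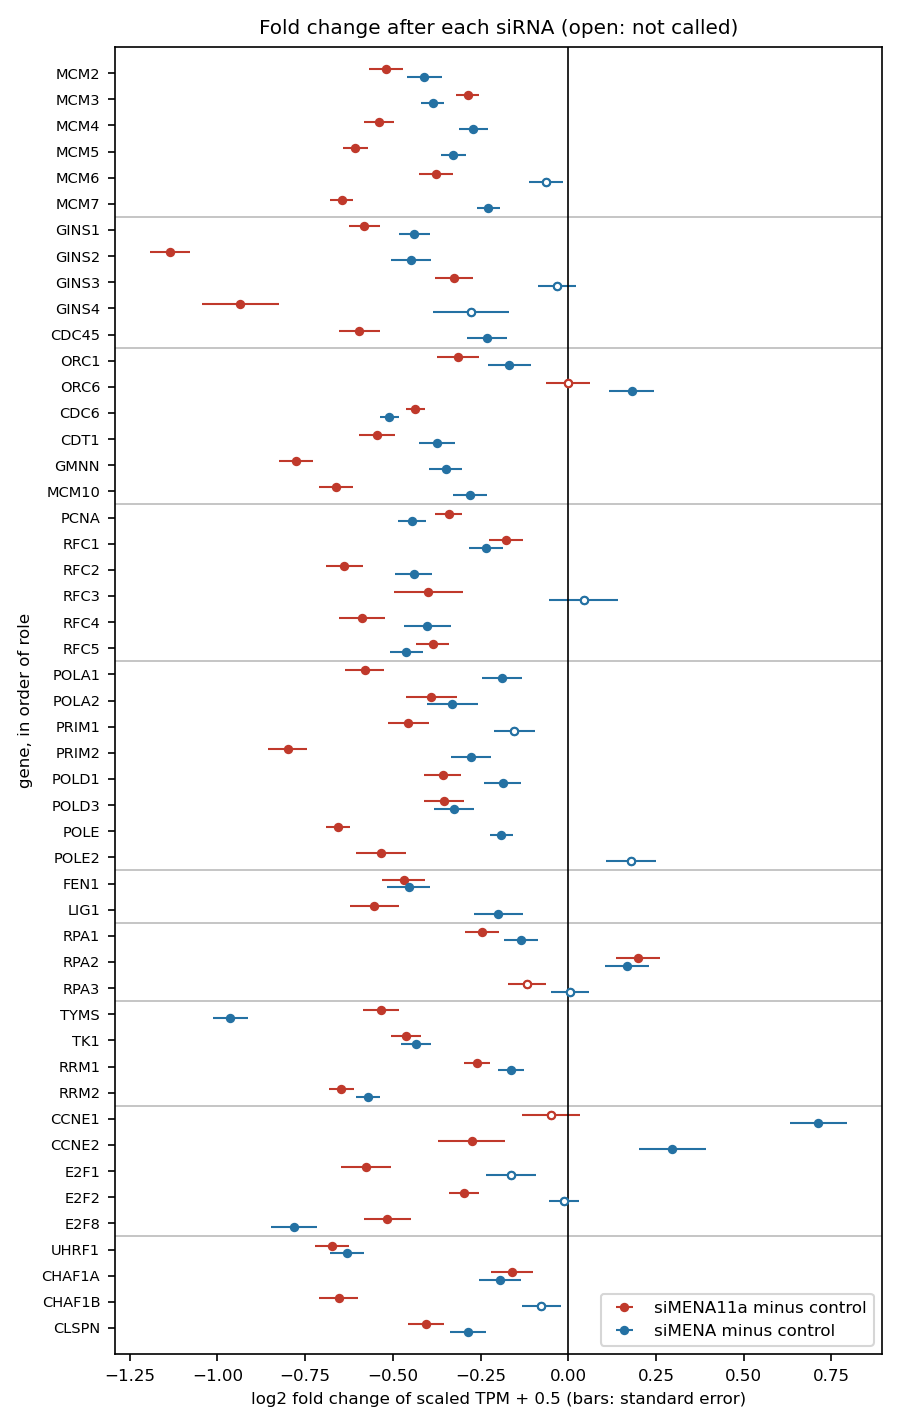
Points show the log2 fold change against control for each of the 49 genes, red for siMENA11a and blue for siMENA, with bars for the standard error and open points for differences that were not called. Red points lie to the left of 0 for all but RPA2 and ORC6, which is at 0.00, with GINS2 farthest out at -1.14, and blue points reach from -0.96 for TYMS to 0.71 for CCNE1.

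The core of the replicative helicase is a ring of 6 MCM proteins, MCM2 to MCM7, and all 6 genes fell in siMENA11a. MCM7 measured 94.99, 98.1 and 93.6 TPM in control, 62.5, 61.1 and 59.1 in siMENA11a and 80.4, 83.9 and 80.3 in siMENA. MCM7 was the most abundant of the 6 and the 3 groups did not overlap. It fell by log2 0.65 ± 0.034 in siMENA11a (limma adjusted p = 5.10e-07) and by log2 0.23 ± 0.034 in siMENA (adjusted p = 0.000435), and siMENA11a was lower than siMENA (log2 -0.42, adjusted p = 4.85e-06). For MCM5 the levels were 52.7, 51.5 and 53.2 TPM in control, 35.9, 33.95 and 32.9 in siMENA11a and 41.5, 41.9 and 41.6 in siMENA. Its 3 groups were parted in the same order. MCM4 measured 44.6, 47.5 and 47.3 TPM in control, 32.7, 32.2 and 30.5 in siMENA11a and 36.95, 38.6 and 39.7 in siMENA. The order was again control, siMENA and siMENA11a from high to low. The MCM6 level was 31.4, 28.9 and 32.8 TPM in control libraries, 23.9, 23.9 and 23.4 in siMENA11a and 28.6, 30.7 and 29.6 in siMENA. The siMENA libraries overlapped with control for MCM6 and were not called (log2 -0.06, adjusted p = 0.299), whereas siMENA11a lay below both. For MCM2 the levels were 44.9, 43.9 and 44.2 TPM in control, 33.3, 30.1 and 29.1 in siMENA11a and 33.1, 32.3 and 34.4 in siMENA. The MCM3 level was 48.3, 47.9 and 47.98 TPM in control libraries, 40.9, 38.6 and 38.5 in siMENA11a and 36.4, 36.2 and 37.4 in siMENA. MCM2 and MCM3 fell in both knockdowns. For MCM2 the difference between the knockdowns was not called (log2 -0.11, adjusted p = 0.0825), but it was without siMENA11a 1 (log2 -0.17, adjusted p = 0.00538). It was also called in TPM as deposited (log2 -0.32, adjusted p = 0.000183), under quantile normalisation (-0.13, adjusted p = 0.0457) and in rescaled TPM (-0.13, adjusted p = 0.0347). For MCM3 siMENA was the lower of both (log2 0.10, adjusted p = 0.0248). That last call turned with the scaling, since in TPM as deposited the difference was log2 -0.12 (adjusted p = 0.0447). It also ended without siMENA11a 1 (0.07, adjusted p = 0.0552), siMENA 1 (0.10, adjusted p = 0.0598) or siMENA 2 (0.09, adjusted p = 0.0735). MCM2 and MCM7 share exonic bases with a gene on the other strand (TPRA1 and AP4M1, in GENCODE 29), and whether strand was used in counting is not given in the sources used here.

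GINS is a ring of 4 small subunits that, with CDC45, turns the loaded MCM ring into a moving helicase, and it held the 2 largest falls of the set in siMENA11a. For GINS2 the levels were 36.1, 37.4 and 35.1 TPM in control, 17.4, 15.5 and 15.7 in siMENA11a and 27.1, 24.6 and 27.5 in siMENA. Every siMENA11a library lay far below every control library, and siMENA lay between. GINS2 fell by log2 1.14 ± 0.058 in siMENA11a (limma adjusted p = 4.30e-07), the only member with a called fall of at least 2-fold, and by log2 0.45 ± 0.058 in siMENA. GINS4 measured 5.72, 6.87 and 6.21 TPM in control, 3.23, 3.03 and 2.84 in siMENA11a and 4.33, 5.00 and 6.00 in siMENA. GINS4, the second largest fall in siMENA11a (log2 -0.93 ± 0.11), was low in level and variable in siMENA, where library 3 lay within the control range (log2 -0.28, adjusted p = 0.0593). Without that library the difference was called (log2 -0.39, adjusted p = 0.0114). GINS1 measured 22.8, 21.9 and 21.4 TPM in control, 14.7, 14.1 and 14.9 in siMENA11a and 16.5, 15.3 and 16.5 in siMENA. The GINS3 level was 14.96, 16.03 and 13.7 TPM in control libraries, 11.6, 11.6 and 12.2 in siMENA11a and 14.8, 14.2 and 14.7 in siMENA. GINS1 fell in both knockdowns, and GINS3 fell in siMENA11a (log2 -0.33) but was not called in siMENA (log2 -0.03, adjusted p = 0.66). For CDC45 the levels were 15.4, 15.8 and 17.7 TPM in control, 10.4, 11.1 and 10.3 in siMENA11a and 13.8, 14.3 and 13.2 in siMENA. CDC45 fell by log2 0.60 ± 0.058 in siMENA11a, and its smaller fall in siMENA (log2 -0.23, adjusted p = 0.00823) was log2 -0.15 in TPM as deposited (adjusted p = 0.0784).

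The licensing genes, which act before the helicase is active, mostly followed. ORC1 and ORC6 are subunits of the origin recognition complex, CDC6 and CDT1 load the MCM ring, geminin (GMNN) blocks CDT1 after S phase has begun, and MCM10 helps to start the helicase. For GMNN the levels were 45.1, 47.7 and 44.1 TPM in control, 27.5, 25.8 and 26.01 in siMENA11a and 33.8, 37.3 and 36.1 in siMENA. Geminin had the largest fall of this group in siMENA11a (log2 -0.78 ± 0.047, limma adjusted p = 1.24e-06), with siMENA between the other groups. MCM10 measured 20.7, 20.1 and 20.7 TPM in control, 13.6, 11.9 and 12.9 in siMENA11a and 16.5, 17.1 and 16.8 in siMENA. For CDT1 the levels were 33.1, 31.98 and 32.2 TPM in control, 23.04, 22.5 and 20.7 in siMENA11a and 23.5, 24.97 and 26.4 in siMENA. MCM10 and CDT1 showed the same order of groups. For CDT1 the difference between the knockdowns (log2 -0.17, adjusted p = 0.0159) ended without siMENA11a 3 (adjusted p = 0.0569) or siMENA 3 (adjusted p = 0.0618). For CDC6 the levels were 53.02, 52.8 and 51.9 TPM in control, 38.8, 39.02 and 38.4 in siMENA11a and 36.3, 37.2 and 36.8 in siMENA. CDC6 was among the tightest genes of the set, and both knockdowns lay about equally far below control (log2 -0.44 and log2 -0.51). The small difference between the knockdowns (log2 0.07, adjusted p = 0.0361) turned to log2 -0.14 in TPM as deposited (adjusted p = 0.0244). It also ended without any 1 of control 2, siMENA11a 2, siMENA11a 3, siMENA 1 or siMENA 3 (log2 0.07 to 0.08, adjusted p 0.0505 to 0.101). For ORC1 the levels were 12.5, 12.4 and 11.1 TPM in control, 9.36, 9.84 and 9.39 in siMENA11a and 9.94, 10.6 and 11.3 in siMENA. ORC1 fell in siMENA11a (log2 -0.31). Its call in siMENA (log2 -0.17, adjusted p = 0.0438) ended when any 1 library other than control 3 or siMENA 3 was left out (log2 -0.17 to -0.12, adjusted p 0.0558 to 0.144). ORC6 measured 24.3, 23.1 and 20.1 TPM in control, 22.9, 22.2 and 22.1 in siMENA11a and 25.98, 24.4 and 26.1 in siMENA. ORC6 went against its group. It was level between siMENA11a and control (log2 0.00, adjusted p = 0.993) and slightly higher in siMENA (log2 0.18, adjusted p = 0.0404), a call that ended when any 1 library other than control 1 or siMENA 2 was left out (log2 0.10 to 0.20, adjusted p 0.0554 to 0.11).

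PCNA is the sliding clamp that holds polymerases on DNA, and RFC1 to RFC5 form the loader that opens it. The PCNA level was 47.9, 47.5 and 48.00 TPM in control libraries, 39.1, 36.5 and 37.3 in siMENA11a and 33.2, 36.01 and 35.8 in siMENA. PCNA fell in both knockdowns, by log2 0.34 ± 0.039 in siMENA11a and by log2 0.44 ± 0.039 in siMENA (limma adjusted p = 7.16e-05 and 1.73e-05). The difference between the knockdowns (log2 0.10, adjusted p = 0.044) was log2 -0.11 in TPM as deposited (adjusted p = 0.0949). It ended when any 1 library other than siMENA11a 2 or siMENA 2 was left out (log2 0.07 to 0.12, adjusted p 0.0516 to 0.142). The RFC2 level was 41.2, 39.8 and 41.6 TPM in control libraries, 26.6, 27.5 and 24.1 in siMENA11a and 28.4, 30.9 and 30.7 in siMENA. For RFC4 the levels were 32.1, 29.2 and 28.8 TPM in control, 21.1, 19.4 and 18.9 in siMENA11a and 21.3, 24.7 and 21.99 in siMENA. RFC2 and RFC4 had the larger falls among the loader genes in siMENA11a and were lower there than in siMENA. For RFC4 that last call (log2 -0.19, adjusted p = 0.0351) ended without any 1 of siMENA11a 2, siMENA11a 3, siMENA 2 or siMENA 3 (log2 -0.21 to -0.12, adjusted p 0.0504 to 0.126). The RFC5 level was 22.01, 21.3 and 22.6 TPM in control libraries, 17.7, 16.7 and 15.7 in siMENA11a and 15.6, 16.1 and 15.8 in siMENA. Both knockdowns lay below control for RFC5, and the difference between them was not called (log2 0.07, adjusted p = 0.204). RFC3 measured 12.02, 11.3 and 9.98 TPM in control, 9.61, 8.20 and 7.16 in siMENA11a and 11.02, 11.5 and 11.7 in siMENA. RFC3 fell in siMENA11a (log2 -0.40, adjusted p = 0.00675) and lay within the control range in siMENA, at a difference of log2 0.04 (adjusted p = 0.739). For RFC1 the levels were 12.5, 12.8 and 11.9 TPM in control, 11.2, 10.7 and 10.7 in siMENA11a and 9.87, 10.6 and 10.8 in siMENA. RFC1, the large subunit, had the smallest fall of the 6 in siMENA11a (log2 -0.18, adjusted p = 0.0109), and in rescaled TPM it was not called (log2 -0.11, adjusted p = 0.106). RFC5 shares 186 exonic bases with WSB2 on the other strand, and PCNA, RFC3 and RFC5 have processed pseudogenes in the same annotation, so part of their reads may be assigned differently by another counting.

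All 8 genes of the polymerases and primase fell in siMENA11a. The primase subunits PRIM1 and PRIM2 and the polymerase alpha subunits POLA1 and POLA2 lay down the first nucleotides of each strand, polymerase epsilon (POLE, POLE2) copies the leading strand and polymerase delta (POLD1, POLD3) the lagging strand. The PRIM2 level was 22.5, 21.8 and 20.3 TPM in control libraries, 12.7, 12.2 and 11.5 in siMENA11a and 16.6, 18.3 and 18.03 in siMENA. PRIM2 had the largest fall of the 8 (log2 -0.80 ± 0.057, limma adjusted p = 3.28e-06) and was lower in siMENA11a than in siMENA (log2 -0.52). For POLE the levels were 19.4, 19.1 and 19.2 TPM in control, 11.9, 12.3 and 11.9 in siMENA11a and 17.2, 16.5 and 16.7 in siMENA. The catalytic subunit POLE was tight within groups and parted in the order control, siMENA and siMENA11a, with a fall of log2 0.66 ± 0.034 in siMENA11a (adjusted p = 4.79e-07). POLE2 measured 10.5, 9.26 and 11.6 TPM in control, 6.96, 7.31 and 6.83 in siMENA11a and 12.1, 11.7 and 11.8 in siMENA. Its partner POLE2 was lowest in siMENA11a too, but was not lowered in siMENA, where each library lay above each control library (log2 0.18, adjusted p = 0.06). That difference was called without control 3 (log2 0.25, adjusted p = 0.0106) and in TPM as deposited (0.26, adjusted p = 0.0103). For POLA1 the levels were 8.26, 8.62 and 8.19 TPM in control, 5.68, 5.09 and 5.52 in siMENA11a and 7.65, 7.02 and 7.15 in siMENA. POLA1 fell by log2 0.58 ± 0.056 in siMENA11a and less in siMENA (log2 -0.19, adjusted p = 0.0194), a call that ended without control 2 (adjusted p = 0.067), siMENA 2 (adjusted p = 0.0669) or siMENA 3 (adjusted p = 0.0585). The POLA2 level was 18.6, 20.4 and 17.3 TPM in control libraries, 14.7, 13.3 and 14.6 in siMENA11a and 16.03, 14.5 and 13.9 in siMENA. POLD3 measured 11.2, 11.1 and 10.9 TPM in control, 8.21, 8.14 and 9.30 in siMENA11a and 9.12, 8.54 and 8.49 in siMENA. POLA2 and POLD3 lay below control in both knockdowns, with no call between them. For PRIM1 the levels were 17.7, 18.6 and 16.7 TPM in control, 13.2, 13.1 and 11.96 in siMENA11a and 15.2, 15.5 and 16.8 in siMENA. For POLD1 the levels were 17.7, 18.01 and 18.4 TPM in control, 15.1, 12.97 and 13.8 in siMENA11a and 16.1, 15.6 and 15.7 in siMENA. Among POLA2, PRIM1, POLD1 and POLD3 the falls in siMENA11a ran from 0.35 to 0.46 on the log2 scale. In siMENA PRIM1 was not called (log2 -0.15, adjusted p = 0.0528), although it was without control 3 (adjusted p = 0.0324), siMENA11a 3 (adjusted p = 0.0435) or siMENA 3 (adjusted p = 0.0293).

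FEN1 and LIG1, the flap nuclease and ligase that join the pieces of the lagging strand, fell in both knockdowns. The FEN1 level was 36.7, 38.05 and 34.2 TPM in control libraries, 27.1, 25.6 and 25.5 in siMENA11a and 24.2, 28.3 and 26.7 in siMENA. FEN1 fell alike in siMENA11a (log2 -0.47 ± 0.061) and siMENA (log2 -0.45 ± 0.061). Their difference was log2 -0.01 with an SE of 0.061 (limma adjusted p = 0.854). The LIG1 level was 14.1, 12.5 and 14.2 TPM in control libraries, 9.11, 9.70 and 8.48 in siMENA11a and 11.01, 11.7 and 12.6 in siMENA. LIG1 fell in siMENA11a (log2 -0.55) and was lower there than in siMENA (a direct difference of log2 -0.35, adjusted p = 0.00185). Its call in siMENA against control (log2 -0.20, adjusted p = 0.0406) ended without any 1 of control 1, control 3, siMENA11a 1, siMENA 1 or siMENA 2 (log2 -0.20 to -0.15, adjusted p 0.0634 to 0.134). FEN1 shares 166 exonic bases with TMEM258 and 49 with FADS2.

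RPA1, RPA2 and RPA3 form the heterotrimer that coats single-stranded DNA at the fork, and their genes did not move together. RPA1 measured 23.01, 23.1 and 21.7 TPM in control, 20.3, 18.8 and 17.99 in siMENA11a and 20.6, 20.2 and 20.9 in siMENA. RPA1 fell in siMENA11a (log2 -0.25, limma adjusted p = 0.00184). Its smaller fall in siMENA (log2 -0.13, adjusted p = 0.0412) ended without any 1 of control 1, control 2, siMENA11a 2 or a siMENA library (log2 -0.15 to -0.12, adjusted p 0.0569 to 0.118). For RPA2 the levels were 33.6, 35.4 and 32.6 TPM in control, 40.1, 39.1 and 37.7 in siMENA11a and 42.00, 37.5 and 34.99 in siMENA. RPA2 was the only member called above control in siMENA11a (log2 0.20, adjusted p = 0.0213) and was also higher in siMENA (log2 0.17, adjusted p = 0.0494). The rise in siMENA11a was log2 0.07 in TPM as deposited (adjusted p = 0.403), and ended without any 1 of control 1, control 3, siMENA11a 1 or siMENA11a 2 (0.17 to 0.20, adjusted p 0.0553 to 0.0751). The call in siMENA ended when any 1 library other than control 2 or siMENA 3 was left out (log2 0.10 to 0.18, adjusted p 0.0607 to 0.146). The RPA3 level was 10.6, 9.85 and 10.5 TPM in control libraries, 8.93, 9.85 and 9.69 in siMENA11a and 9.89, 10.8 and 10.5 in siMENA. All 3 siMENA11a libraries lay below control for RPA3, by a narrow margin, but it was not called in siMENA11a (log2 -0.12, adjusted p = 0.0916) or siMENA (log2 0.01, adjusted p = 0.938). In TPM as deposited it was called lower in siMENA11a (log2 -0.24, adjusted p = 0.0141).

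Deoxynucleotides are made by ribonucleotide reductase (RRM1 and RRM2), thymidylate synthase (TYMS) and thymidine kinase (TK1), and all 4 genes fell in both knockdowns. RRM2 measured 220.3, 215 and 218 TPM in control, 144, 139 and 134 in siMENA11a and 144, 152 and 143 in siMENA. RRM2, the subunit whose level rises in S phase, was the most abundant of the 49 genes and fell by log2 0.65 ± 0.035 in siMENA11a and log2 0.57 ± 0.035 in siMENA (limma adjusted p = 6.92e-07 and 2.00e-06). The difference between the knockdowns was not called (log2 -0.08, adjusted p = 0.0938). It was called in TPM as deposited (log2 -0.29, adjusted p = 9.51e-05), under quantile normalisation (-0.16, adjusted p = 0.000646), in rescaled TPM (-0.10, adjusted p = 0.0333) and without siMENA11a 1 (-0.10, adjusted p = 0.0426). The RRM1 level was 64.7, 63.05 and 64.1 TPM in control libraries, 56.2, 51.9 and 52.04 in siMENA11a and 56.6, 58.6 and 56.01 in siMENA. RRM1, the large subunit, moved less (log2 -0.26 and log2 -0.16). In siMENA its fall was not called in TPM as deposited (log2 -0.08, adjusted p = 0.158) or under quantile normalisation (-0.05, adjusted p = 0.284). For TK1 the levels were 66.3, 68.3 and 71.9 TPM in control, 48.9, 52.01 and 48.5 in siMENA11a and 51.3, 48.7 and 52.5 in siMENA. TK1 fell by about the same amount in both, and the difference between the knockdowns was log2 -0.03 with an SE of 0.044 (adjusted p = 0.6). TYMS measured 125, 137 and 128 TPM in control, 92.2, 88.9 and 87.6 in siMENA11a and 61.6, 68.8 and 68.9 in siMENA. TYMS had the largest fall of any member in siMENA (log2 -0.96 ± 0.051, adjusted p = 8.17e-07) and a smaller one in siMENA11a (log2 -0.53 ± 0.051). The direct comparison was called (log2 0.43, adjusted p = 6.23e-05). TYMS shares 967 exonic bases with ENOSF1 on the other strand, whose mean was 7.67 TPM as deposited beside 95.6 for TYMS.

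Among the regulators of S phase entry, every member differed between the knockdowns. Cyclins E1 and E2 (CCNE1, CCNE2) activate CDK2 at the G1/S boundary, E2F1 and E2F2 activate replication genes, and E2F8 is a repressor that is itself induced in S phase. CCNE1 measured 10.7, 10.02 and 9.09 TPM in control, 9.85, 9.39 and 9.48 in siMENA11a and 18.7, 14.9 and 16.4 in siMENA. CCNE1 was not called in siMENA11a (log2 -0.05, limma adjusted p = 0.632) and rose in siMENA (log2 0.71 ± 0.082, adjusted p = 9.22e-05). All 3 siMENA libraries lay above the other 6, and the direct comparison was called (log2 -0.76, adjusted p = 3.26e-05). For CCNE2 the levels were 3.51, 3.01 and 3.45 TPM in control, 2.76, 2.86 and 2.36 in siMENA11a and 4.64, 4.17 and 3.79 in siMENA. CCNE2 was lowest in siMENA11a and highest in siMENA, parted by log2 -0.57 (adjusted p = 0.000589). Its differences from control were weaker. The fall in siMENA11a (log2 -0.28, adjusted p = 0.0328) ended without any 1 of control 1, control 3, siMENA11a 1 or siMENA11a 3 (log2 -0.30 to -0.21, adjusted p 0.0537 to 0.115), and in rescaled TPM (log2 -0.23, adjusted p = 0.0983). The rise in siMENA (log2 0.30, adjusted p = 0.0271) ended without any 1 of control 2, siMENA 1 or siMENA 2 (log2 0.23 to 0.30, adjusted p 0.0626 to 0.0961). CCNE2 shares 1629 exonic bases with INTS8 on the other strand, whose mean was 19.7 TPM as deposited beside 3.45 for CCNE2, so its values are uncertain.

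For E2F1 the levels were 24.2, 24.1 and 27.4 TPM in control, 17.9, 17.4 and 14.95 in siMENA11a and 23.03, 21.95 and 22.3 in siMENA. E2F1 fell by log2 0.58 ± 0.072 in siMENA11a (limma adjusted p = 0.000116), and its difference in siMENA was not called (log2 -0.16, adjusted p = 0.0873), although every siMENA library lay below every control library. It was called without siMENA11a 3 (adjusted p = 0.0343). The E2F2 level was 12.8, 12.4 and 13.1 TPM in control libraries, 10.7, 9.92 and 10.3 in siMENA11a and 12.5, 12.4 and 13.1 in siMENA. E2F2 likewise fell in siMENA11a (log2 -0.30), and its libraries in siMENA overlapped with control (log2 -0.01, adjusted p = 0.847). The E2F8 level was 6.72, 6.74 and 6.15 TPM in control libraries, 4.74, 4.27 and 4.27 in siMENA11a and 3.42, 3.57 and 3.78 in siMENA. E2F8 showed the reverse order, with siMENA lowest. It fell by log2 0.52 ± 0.066 in siMENA11a and log2 0.78 ± 0.066 in siMENA, and the direct difference of log2 0.27 (adjusted p = 0.00618) was 0.07 in TPM as deposited (adjusted p = 0.428).

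**Figure D3:**
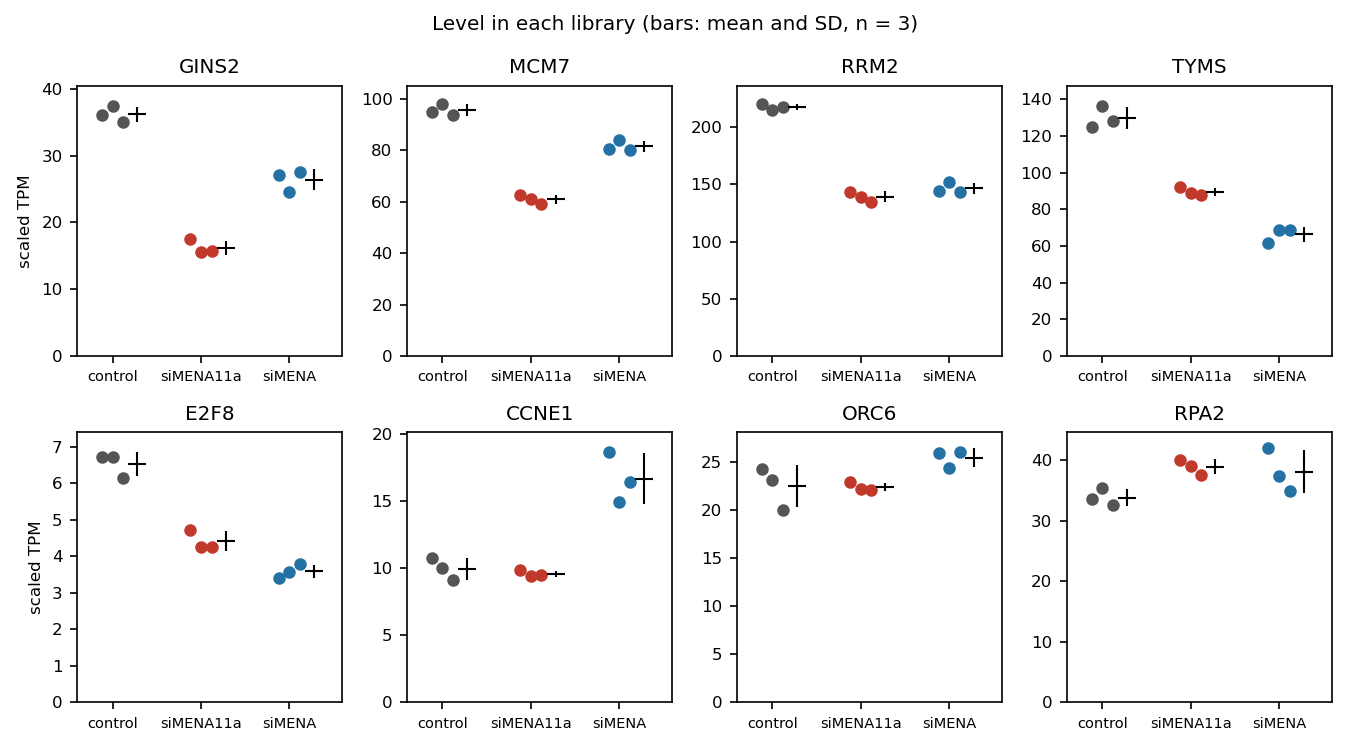
Dots show scaled TPM (y axis from 0) in the 3 libraries of each group for 8 members, beside the mean and SD. GINS2 and MCM7 step down from control to siMENA to siMENA11a, TYMS and E2F8 are lowest in siMENA, CCNE1 is high in siMENA alone, and ORC6 and RPA2 are not lowered.

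Behind the fork, CHAF1A and CHAF1B belong to the CAF-1 complex that deposits histones on new DNA, UHRF1 recruits DNA methylation to it, and claspin (CLSPN) passes stalled-fork signals to the checkpoint kinase. For UHRF1 the levels were 49.99, 47.5 and 48.3 TPM in control, 31.9, 28.9 and 30.2 in siMENA11a and 29.5, 31.6 and 32.6 in siMENA. UHRF1 fell in both knockdowns by nearly the same amount (log2 -0.67 and log2 -0.63, limma adjusted p = 3.53e-06 and 7.20e-06), with a direct difference of log2 -0.04 and an SE of 0.048. The CHAF1B level was 13.5, 11.9 and 12.6 TPM in control libraries, 7.80, 8.14 and 7.68 in siMENA11a and 11.8, 12.6 and 11.6 in siMENA. CHAF1B fell in siMENA11a (log2 -0.65) and was not called in siMENA (log2 -0.08, adjusted p = 0.288). For CHAF1A the levels were 12.8, 12.3 and 13.7 TPM in control, 11.5, 12.1 and 10.9 in siMENA11a and 10.7, 11.9 and 11.1 in siMENA. Its partner CHAF1A moved little. The call in siMENA11a (log2 -0.16, adjusted p = 0.0424) ended without any 1 of control 1, control 3, siMENA11a 1, siMENA11a 3 or siMENA 3 (log2 -0.17 to -0.12, adjusted p 0.0569 to 0.14), and in rescaled TPM (log2 -0.09, adjusted p = 0.233). CLSPN measured 10.9, 11.1 and 10.4 TPM in control, 8.39, 7.94 and 7.76 in siMENA11a and 8.40, 8.73 and 9.19 in siMENA. CLSPN fell in both knockdowns. The fall of CHAF1A in siMENA (log2 -0.19, adjusted p = 0.0215) ended without control 3 (adjusted p = 0.0736), siMENA 1 (adjusted p = 0.0739) or siMENA 3 (adjusted p = 0.0612).

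Across the set, 17 genes fell in both knockdowns and were lower again in siMENA11a than in siMENA, GINS2, MCM7, GMNN, PRIM2 and POLE among them. RRM1, GINS1 and POLD1 are also among the 17, with weaker direct calls. That of RRM1 (log2 -0.10, limma adjusted p = 0.0489) ended when any 1 library other than siMENA11a 1 was left out. For GINS1 and POLD1 it ended in 3 such fits each. A further 13 genes fell in both knockdowns with no call between the knockdowns, RRM2, TK1, UHRF1 and FEN1 included. In TPM as deposited, where the median of all tested genes was -0.20, 12 of these 13 (all but RFC1) were called lower in siMENA11a than in siMENA. Over all genes tested, 6321 were called lower and 2030 higher on that scale. Another 9 fell in siMENA11a, were not called in siMENA and were lower in the direct comparison, among them MCM6, E2F1, E2F2, CHAF1B and RFC3. The other 10 were the exceptions named above, 5 of them with siMENA the lower of both knockdowns. How common these joint patterns are over all tested genes was not counted. Taken singly, 27.7% of all tested genes were called lower in siMENA11a, 25.8% in siMENA and 29.2% between the knockdowns. The comparisons share libraries, so their calls are not independent. Exons of 12 members overlap another gene expressed at 1 TPM or more, in the same annotation. There, 7 members have numbered processed pseudogenes (PCNA, RFC3, RFC5, FEN1, RPA2, TYMS and RRM2). Over the 9 libraries the median Pearson correlation between 2 members' log values was 0.79 over 1176 pairs, and 103 pairs had an r under 0. The points share libraries and size factors, and the correlations are given as a description. The group differences given above enter each r, and no r over other gene pairs was computed. Against the mean of the other members, RPA2 (r = -0.74), ORC6 (-0.02) and CCNE1 (-0.01) were the 3 lowest.

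The promoters of the members were also searched for words that E2F factors are known to bind. Most of these genes are known E2F targets, so the share with a word describes the list, whatever the siRNAs did. RefSeq windows of 300 bases (250 before and 50 after an annotated start, GRCh38.p14) were available for 41 of the 49 genes, 32 of them with 1 window and the others with 2 or 3. The words TTTCCCGC, TTTGGCGC, TTTCGCGC and TTTGCCGC were searched on both strands, and words that overlap on opposite strands were each counted. At least 1 word was found for 22 of the 41 genes (53.7%), against 6.88% of the 9460 tested genes with a window. Per window the shares were 43.4% of 53 and 5.06% of 13807. The NF-Y word CCAAT was found for 61.0% of the 41 and 43.4% of all tested genes. The CHR word TTTGAA, known from promoters of mitotic genes, was found for 1 of the 41 genes, for 17 of 24 genes of a G2 and mitosis list (70.8%) and for 13.1% of all tested genes. Of the 30 E2F words in members, 20 began between 60 bases before and 20 bases after the start. A match is a description of the letters and not of binding, and the annotated start need not be the one used in H2030.

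Windows of 5 members show the range, with E2F words in capitals and all other bases in lower case, 5′ to 3′ on the strand of the gene. GINS2 (chr16:85688905-85689204, minus strand), the largest fall, holds 1 word on the strand opposite to transcription, starting at position -31 from the gene start. MCM6 (chr2:135876394-135876693, minus strand) holds 4 words in 2 overlapping pairs, and E2F1 (chr20:33686336-33686635, minus strand), itself an E2F factor, holds 2. CCNE1 (chr19:29811741-29812040, plus strand) and ORC6 (chr16:46689409-46689708, plus strand), both without a fall in siMENA11a, hold none of these 4 words. They are the only ones of the 19 members without a word that were not called lower. PRIM2 (log2 -0.80 in siMENA11a), MCM10, CHAF1B and RRM2, not printed, also hold none.
GINS2: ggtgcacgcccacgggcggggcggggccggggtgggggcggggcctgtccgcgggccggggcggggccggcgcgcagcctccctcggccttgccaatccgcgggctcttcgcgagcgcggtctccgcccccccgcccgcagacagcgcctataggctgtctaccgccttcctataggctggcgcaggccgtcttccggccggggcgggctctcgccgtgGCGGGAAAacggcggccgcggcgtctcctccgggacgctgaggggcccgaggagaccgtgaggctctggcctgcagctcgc
MCM6: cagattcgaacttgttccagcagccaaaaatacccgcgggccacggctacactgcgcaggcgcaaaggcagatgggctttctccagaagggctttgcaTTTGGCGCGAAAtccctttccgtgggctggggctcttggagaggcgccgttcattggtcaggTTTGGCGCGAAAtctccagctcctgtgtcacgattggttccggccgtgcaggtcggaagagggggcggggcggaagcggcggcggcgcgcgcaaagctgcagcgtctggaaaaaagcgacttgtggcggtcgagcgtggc
E2F1: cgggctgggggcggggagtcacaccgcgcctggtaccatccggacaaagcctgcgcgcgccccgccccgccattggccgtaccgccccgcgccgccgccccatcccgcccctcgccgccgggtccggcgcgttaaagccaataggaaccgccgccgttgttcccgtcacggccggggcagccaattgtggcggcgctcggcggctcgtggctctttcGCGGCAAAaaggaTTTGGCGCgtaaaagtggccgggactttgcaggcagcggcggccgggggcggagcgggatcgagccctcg
CCNE1: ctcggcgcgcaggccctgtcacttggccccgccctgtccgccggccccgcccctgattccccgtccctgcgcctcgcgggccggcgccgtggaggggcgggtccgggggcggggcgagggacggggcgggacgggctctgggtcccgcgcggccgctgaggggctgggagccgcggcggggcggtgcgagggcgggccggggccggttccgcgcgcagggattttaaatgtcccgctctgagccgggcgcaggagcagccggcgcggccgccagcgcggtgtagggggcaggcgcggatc
ORC6: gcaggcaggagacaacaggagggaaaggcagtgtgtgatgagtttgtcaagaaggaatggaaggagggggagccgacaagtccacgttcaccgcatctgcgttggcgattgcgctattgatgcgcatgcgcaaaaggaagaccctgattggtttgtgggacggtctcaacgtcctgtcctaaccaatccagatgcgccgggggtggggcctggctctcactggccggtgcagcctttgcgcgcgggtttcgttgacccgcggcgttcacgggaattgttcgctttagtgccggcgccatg

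Members with an E2F word had a median log2 fold change of -0.53 in siMENA11a (22 genes, -1.14 to -0.29) and those without one -0.46 (19 genes, -0.80 to 0.00). In siMENA the medians were -0.31 and -0.23. All 22 genes with a word, and 17 of the 19 without, were called lower in siMENA11a. MCM4, MCM5, GINS4, POLD3, RPA2, RPA3, CCNE2 and E2F8 had no window and are in neither group. Of these, RPA2 and RPA3 were not called lower, and GINS4 had the second largest fall. Outside the set, 629 tested genes with an E2F word had a median of -0.05 in siMENA11a and 8790 without one a median of 0.01. Members without a word had a lower median than other genes with one. The members were chosen with earlier results known, and whether E2F words bear on the falls was not tested.

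**Figure D4:**
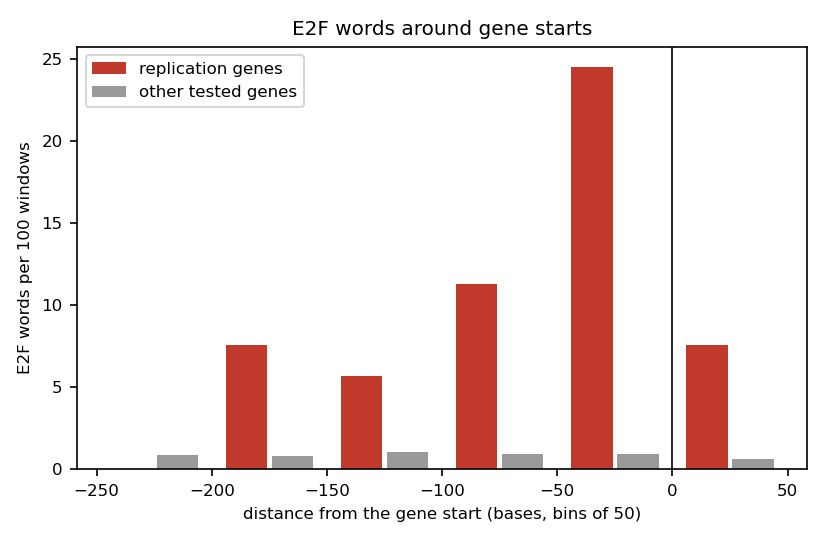
Bars give the number of E2F words per 100 RefSeq windows in bins of 50 bases around the gene start, red for the replication genes (53 windows) and grey for the other tested genes (13754 windows). Replication genes reach 24.5 words per 100 windows in the 50 bases before the start, where other genes have 0.916.

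An siRNA can also lower transcripts that carry a short match to its own target. The targeted exon was taken to be the 63-base coding exon of ENAH at chr1:225504991-225505053 (minus strand, GRCh38), printed here because the words searched come from it.
ENAH exon: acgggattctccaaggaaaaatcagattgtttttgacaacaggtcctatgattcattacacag
Of all words of 7 bases in this exon, CCAAGGA and CAAGGAA had the lowest medians in siMENA11a among tested genes outside the set that carry them in the 3' UTR, as carriers set against other genes. They were picked from this comparison, so the shift in other genes is a description. In other tested genes the median in siMENA11a was -0.07 for 2750 carriers of either word and 0.03 for 8518 without. In siMENA the medians of the same genes were 0.010 and 0.008. Of the 49 members, 9 carry one (18.4%, against 24.4% of the other genes): MCM4, GINS2, GINS3, CDC6, POLA1, LIG1, CCNE2, E2F2 and UHRF1. GINS2, the largest fall, is among them, and its site is shown with the matching word in capitals.
GINS2 site: gtgtgatggtgCAAGGAAtggattcaggat
The 9 carriers had a median of -0.54 in siMENA11a and the 40 members without a word -0.47, of which 36 were called lower. In siMENA the 9 carriers had a median of -0.20 and the 40 members without a word -0.28. Members without either word had the same median as all 49 genes to 2 decimals. They make up 40 of the 49, so this nearness was largely given and is no test of the words. Whether these words or other short matches play a part was not tested.

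Related genes were read from lists beside the 49, all in the same fit, and their counts stand beside 27.7% of all tested genes called lower and 27.9% higher in siMENA11a, and 25.8% and 23.7% in siMENA. A list whose share is near these, such as nucleotide supply in siMENA or the G1/S regulators called higher in siMENA11a, shows nothing beyond the background. Of 33 further replication factors, 24 fell, 2 rose and 7 were not called in siMENA11a (median -0.39), and 17 fell and 5 rose in siMENA (median -0.14). DSCC1, part of an alternative clamp loader, had the largest of these falls in siMENA11a (log2 -1.33) and was not called in siMENA (log2 0.08, limma adjusted p = 0.282). CHTF18 of the same loader showed this pattern too (log2 -0.80 and log2 -0.05, the latter with adjusted p = 0.373). The histone chaperone SSRP1 fell more in siMENA11a (log2 -0.72) than its log2 -0.14 in siMENA, while DBF4, which activates the kinase CDC7, fell in both (log2 -0.69 and log2 -0.71). In siMENA the falls with the smallest adjusted p also included those of the topoisomerase TOP2A (log2 -0.68), the polymerase epsilon subunit POLE3 (log2 -0.81) and TOPBP1 (log2 -0.60).

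Of 24 nucleotide supply genes, 15 fell and 2 rose in siMENA11a (median -0.14), and 8 fell and 6 rose in siMENA (median -0.04). DUT, which keeps uracil out of DNA, fell by 0.85 on the log2 scale in siMENA11a. The 2 that rose there were TK2, the mitochondrial thymidine kinase (log2 0.57), and SAMHD1 (log2 0.98), which degrades deoxynucleotides and is also an interferon-induced gene. Of 28 tested G1/S regulators, 13 fell and 7 rose in siMENA11a (median -0.13), and 15 fell and 4 rose in siMENA (median -0.20). MYBL2 fell in both (log2 -0.78 and log2 -0.81), as did CDK2 (log2 -0.59 and log2 -0.36) and CDK4 (log2 -0.65 and log2 -0.20). The E2F partner TFDP1 fell in siMENA11a (log2 -0.65) and was not called in siMENA (log2 -0.05, limma adjusted p = 0.398). In siMENA CDK6 fell by 1.37 and the CDK inhibitor CDKN2C by 0.87 on the log2 scale, and E2F5, a repressor-class E2F, rose (log2 1.26).

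Of 13 genes of chromatin and DNA methylation at the fork, 7 fell and 1 rose in siMENA11a, and 8 fell and 0 rose in siMENA. The maintenance methyltransferase DNMT1, the partner of UHRF1, fell in siMENA11a (log2 -1.08) and in siMENA (log2 -0.33). Of 25 replication stress and repair genes, 16 fell and 3 rose in siMENA11a, and 9 fell and 2 rose in siMENA, with FANCI lower in both (log2 -0.67 and log2 -0.77) and PARP1 lower in siMENA11a (log2 -0.75) but not called in siMENA (log2 0.03, limma adjusted p = 0.62). Of 30 G2 and mitosis genes, 29 fell, 0 rose and 1 was not called in siMENA11a (median -0.57), and 20 fell and 1 rose in siMENA (median -0.19). The mitotic list was thus called lower in siMENA11a about as widely as the replication genes, and siMENA11a was lower than siMENA for 25 of 30 mitotic genes and higher for 2. Over all tested genes 29.2% were called lower and 29.5% higher in that direct comparison. The mitotic counts are given here in scaled TPM only.

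**Figure D5:**
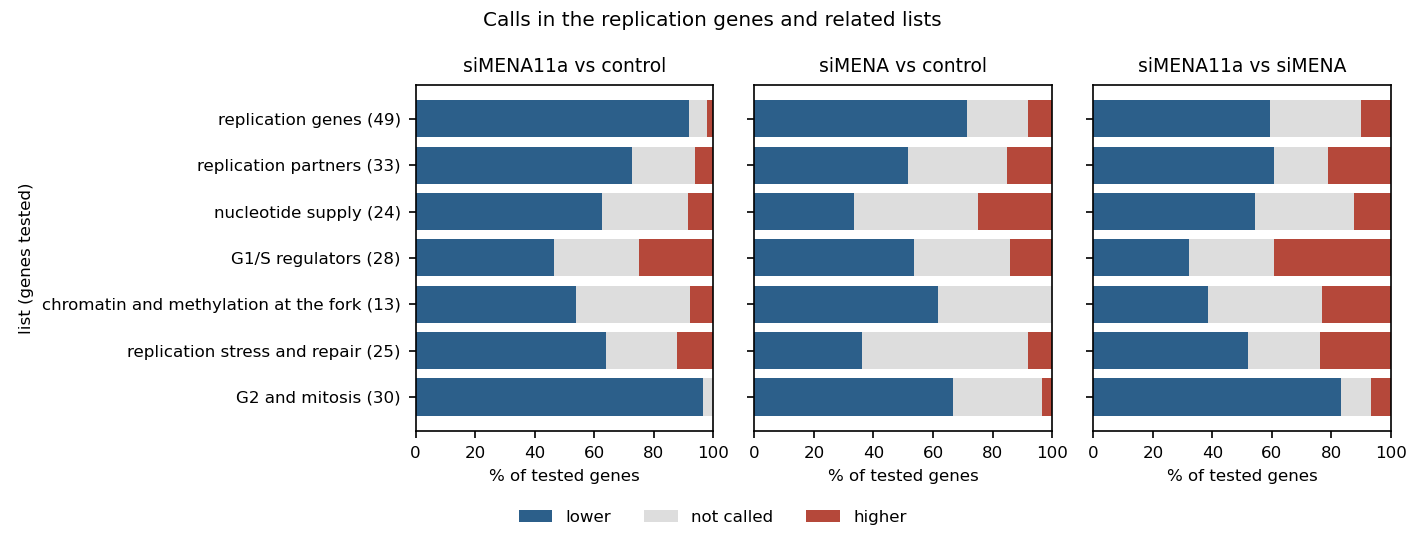
Bars give the percentage of tested genes called lower (blue), not called (grey) or called higher (red) in the replication genes and 6 related lists, 1 panel per comparison, with the number of tested genes in brackets. The replication genes and the G2 and mitosis genes are almost wholly blue for siMENA11a against control, while G1/S regulators are mixed.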

How the data were processed

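RNA-seq of 9 libraries of H2030 cells (3 groups of 3, mapped by title) was used. Per the labels' protocols, ribosomal RNA was removed from total RNA before stranded, paired-end Illumina sequencing. The authors deposited a table of TPM, 29972 genes by 9 libraries, each summing to 1000000. Its name points to RSEM gene values, and kallisto and GRCh37 are listed without a role in the submitters' processing notes. The sources used here name no aligner, counting settings or strand use. Sequencing depth is unknown, since TPM does not keep it, and no interval for counting error was computed. Of per-sample columns outside the 9, there were 0.

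TPM was divided by median-of-ratios size factors (12341 genes with mean TPM of at least 1 and no 0). A mean scaled TPM of 0.5 or more kept 13494 genes. In R 4.3.3, limma 3.58.1 (eBayes, mean trend) fitted the 3 group means together to log2(scaled TPM + 0.5). Fold changes on that scale understate changes of low genes. A gene was called at a Benjamini-Hochberg adjusted p under 0.05 over all tested genes, in each of 3 comparisons. All 49 members are described, and up to 4 genes of each related list by adjusted p in each comparison with control. Some genes the rule names are not reported here. Members, lists and tests were chosen with earlier results of these data known. Library numbers shared by groups come from the titles. The script was tested on simulated data. Promoter words used RefSeq windows (GRCh38.p14), and exon, overlap and 3' UTR searches used GENCODE 29 on GRCh38, joined by symbol.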

Additional observations from a re-analysis of the deposited data

How the results depend on the processing

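For siMENA11a against control, 0 members were called higher in TPM as deposited, and the median of the 49 was -0.60 there and -0.40 when TPM was rescaled after removing small and structured RNAs. For siMENA against control the median was -0.19 as deposited, -0.22 under quantile normalisation and -0.17 rescaled, and the number called higher was 1 without a filter and 2 in a fit of only the 2 groups. For siMENA11a against siMENA, TPM as deposited gave 45 lower, 1 higher and a median of -0.39, and the number higher was 2 under quantile normalisation, 2 rescaled, 3 in a fit of only the 2 groups and 3 with the replicate block. In TPM as deposited the calls over all genes tested also leaned one way. They were 4904 lower and 1965 higher for siMENA11a against control, and 6321 and 2030 for siMENA11a against siMENA. Single genes that turned in TPM as deposited were ENAH, at -0.014 between siMENA11a and control, and MCM3 (-0.12), CDC6 (-0.14) and PCNA (-0.11) between the knockdowns. The cause was not tested. Leaving out each library in turn, the number lower, the number higher and the median ran from 43 to 45, 0 to 1 and -0.50 to -0.45 for siMENA11a against control, from 31 to 36, 1 to 3 and -0.28 to -0.23 for siMENA against control, and from 24 to 32, 2 to 4 and -0.21 to -0.16 for siMENA11a against siMENA. A group left with 2 libraries was taken to vary like the others. Over all alternatives a call changed for 5, 17 and 24 of the 49 in these comparisons. Library numbers did not pair the samples, with correlations of same-numbered deviations from -0.07 to 0.06 and 3 of 9 libraries closest to their own number. With the replicate number as a block, 44, 33 and 28 members were lower and 1, 4 and 3 higher. Depth is unknown, so low genes such as CCNE2 carry an unknown counting error. A search limited to members without the exon words was added after the data were seen.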

Other observations

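Genes outside the set and the related lists were ranked by Pearson correlation of their log values with the members' mean over the 9 libraries, among genes with a mean of at least 5 scaled TPM, as a description in which all points share libraries and size factors. The differences between the 3 groups enter each r, so a high r can come from a like order of the group means. The closest was CDCA3 (r = 0.996), a mitotic entry gene, with CKAP2L (0.994), a spindle gene, near it. Replication-dependent histone genes were also among the closest, with HIST1H3B at 0.995, HIST1H1E at 0.994 and HIST1H2AG at 0.994. The others were CSTF2 (0.995), which encodes a cleavage factor for messenger RNA 3' ends, the actin capping gene CAPZA1 (0.994) and the matrix gene THBS1 (0.993).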
